A study of Mus musculus with 6 samples.

Results

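The matrix metalloproteinases (Mmp), the Adamts proteases and the tissue inhibitors of metalloproteinases (Timp) were followed across 6 one-colour expression arrays of mouse tissue. The members were chosen by platform symbol alone, as every gene named Mmp with a number, Adamts with a number or Timp1 to Timp4, each read from its probe with the highest mean. This gave 44 of 17742 genes, made up of 21 Mmp, 19 Adamts and 4 Timp genes. RNA came from brain, ovary and uterus of female BALB/c mice. The mock group of each tissue had no treatment. The SHT group was dosed orally with Sheng-Hua-Tang (SHT), a traditional herbal medicine, for 7 days at 200 mg/kg. There was 1 array in each of the 6 groups, and differences between an SHT and a mock array therefore carry no estimate of error between mice. The labels give neither the age of the mice nor whether RNA was pooled or the tissues shared mice.

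Matrix metalloproteinases are zinc-dependent enzymes made as inactive precursors, which together can cut nearly every protein of the extracellular matrix. The Adamts enzymes are related secreted proteases that cleave proteoglycans, trim procollagens or process von Willebrand factor. Timps bind the active site of these enzymes and hold them in check. In the female reproductive tract this system is known for its part in follicle rupture, corpus luteum remodelling and the growth and regression of the uterine lining, and in the brain for turnover of the perineuronal matrix.

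Tissue markers went against the labels of 4 arrays, so every array is called here by its label, which names it without assigning a tissue or a treatment. The summed intensity of 6 neuron markers reached 136839 on mock brain and 145776 on SHT ovary, but lay between 717 and 5187 on the other arrays. Theca and luteal markers (3 genes) summed to 94366 on SHT brain and 112177 on mock uterus, and to at most 894 elsewhere. Squamous epithelial markers (6 keratin genes and Sprr3) summed to 280275 on mock ovary and 228129 on SHT uterus, and to at most 5125 elsewhere. Fibroblast markers (6 genes) summed to 117769 and 125550 on these 2 arrays, to 67232 on SHT brain and 61130 on mock uterus, and to 7608 and 5924 on mock brain and SHT ovary. Uterine markers (7 genes) summed to 97381 on SHT uterus, 53430 on mock ovary, 53338 on SHT brain and 26663 on mock uterus. Ltf alone gave 62708, 22638, 42062 and 22691 of these sums. Hoxa10, Hoxa11, Pgr and Esr1 were each higher on SHT uterus and mock ovary than on any other array, as was Hoxa13, though under background. Wnt7a was highest on mock brain, at 700. Leaving out the 4 arrays leaves no treated and untreated array of 1 tissue to compare.

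A member was taken as measured on an array where it read above that array's 95th percentile of 529 olfactory receptor genes, a family seldom expressed outside the nose. This background level ran from 275 on SHT brain to 541 on mock brain. By this measure 8 of the 44 members were measured on all 6 arrays, 18 on some arrays and 18 on none. The 26 members measured somewhere were 13 Mmp genes, 10 Adamts genes and 3 Timps. SHT uterus had 23 measured members, mock uterus 21, SHT brain 19 and mock ovary 18, against 11 on mock brain and 10 on SHT ovary. Of all genes, 44.2% and 48.0% were measured on the last 2 arrays and 51.0% to 55.3% on the others. Among the 26, the brightest reading fell on SHT uterus for 12 (46.2%, against 26.6% of all genes measured somewhere). It fell on mock uterus for 5 (19.2% against 26.8%), on mock ovary for 4 (15.4% against 8.47%) and on mock brain for 3 (11.5% against 17.7%). SHT brain and SHT ovary held 1 each (3.85%, against 6.21% and 14.3%). In bulk tissue, fewer cells of a type and less RNA per cell cannot be told apart.

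**Figure D1:**
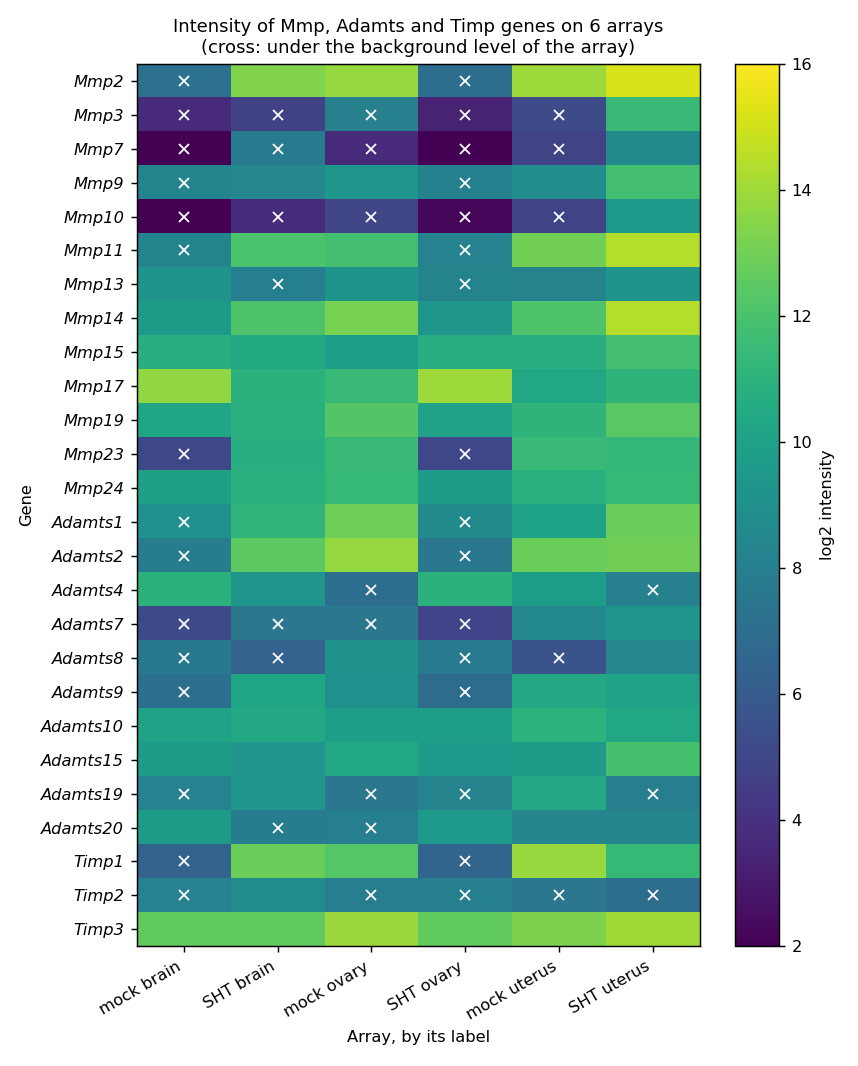
Heat map of log2 intensity (colour scale) for the 26 genes measured on at least 1 array (rows) on the 6 arrays named by their labels (columns), with crosses on readings under the background level of the array. Mmp2, Mmp9, Mmp11, Mmp23, Adamts1, Adamts2, Adamts9 and Timp1 carry crosses on mock brain and SHT ovary and on no other array, while Mmp17 is brightest on those 2 arrays.

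The gelatinases cut denatured collagen and the basement membrane. Mmp2, the widely expressed gelatinase of connective tissue cells, read 152 on mock brain, 10377 on SHT brain, 14167 on mock ovary, 133 on SHT ovary, 15591 on mock uterus and 36506 on SHT uterus. It was therefore under background on 2 arrays and far above it on the other 4, the same division as that of the fibroblast markers, whose part in this pattern was not tested. Mmp9, the gelatinase stored by neutrophils, read 320 on mock brain, 358 on SHT brain, 644 on mock ovary, 283 on SHT ovary, 471 on mock uterus and 3541 on SHT uterus. SHT uterus thus stood above the rest, and mock brain and SHT ovary were under background. On that array 5 of 7 neutrophil markers were above background, with a summed intensity of 68180, against 1 or 2 of 7 and sums of 1683 to 11854 on the others. Its S100a9 reading was 37218, its Csf3r 3486 and its Cxcr2 861. S100a8, of the same list, ran otherwise, with 1924 on mock brain and 2284 on SHT ovary against 522 on SHT uterus. The granule genes Camp and Ngp read 53.3 and 7.64 on SHT uterus. Macrophage markers (5 genes) were also highest there, with a sum of 48763 against 3718 to 14004 elsewhere. The part of either marker list in the Mmp9 readings was not tested. Mmp8, the collagenase of neutrophils, was also highest on SHT uterus, at 266, but was under background everywhere.

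Stromelysins degrade non-collagen matrix proteins and activate other metalloproteinases. Mmp3 read 12.7 on mock brain, 26.9 on SHT brain, 278 on mock ovary, 9.96 on SHT ovary, 36.8 on mock uterus and 2914 on SHT uterus. Mmp10, its close relative, read 3.66, 13.9, 30.7, 4.67, 29.1 and 769 in the same order. Both were above background on SHT uterus only. Mmp11, known from stroma that is being remodelled and activated inside the cell by furin, read 323 on mock brain, 4154 on SHT brain, 3563 on mock ovary, 295 on SHT ovary, 8435 on mock uterus and 22086 on SHT uterus. It was present on all 4 arrays that lacked a neuronal profile, unlike the other stromelysins. Mmp7, the small matrilysin of glandular epithelium, read 2.68, 223, 13.0, 2.32, 29.7 and 400 in the order above, and passed background on SHT uterus only. The collagenase Mmp13 differed less between arrays, with 615 on mock brain, 267 on SHT brain, 610 on mock ovary, 322 on SHT ovary, 311 on mock uterus and 609 on SHT uterus, of which those on SHT brain and SHT ovary were under background.

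Of the Mmp members, 8 lie side by side in the genome. In the RefSeq annotation of GRCm38.p6, 10 Mmp genes follow each other on chromosome 9 with no other protein-coding gene between them, in the order Mmp13, Mmp12, Mmp1b, Mmp3, Mmp1a, Mmp10, Mmp8, Mmp27, Mmp20 and Mmp7. Mmp1a and Mmp1b were not analysed here. Mmp3, Mmp10 and Mmp7 were brightest on SHT uterus, as were Mmp8 and Mmp27, whose highest readings of 266 and 32.3 were under background. Mmp12, the macrophage elastase, was highest on mock brain at 50.5, and Mmp20, an enzyme of tooth enamel, stayed between 20.4 and 31.0, so neither was measured. Among the cluster members that were measured, only Mmp13 was not brightest on SHT uterus, with 615 on mock brain and 609 on SHT uterus. Readings under background give no pattern to compare.

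**Figure D2:**
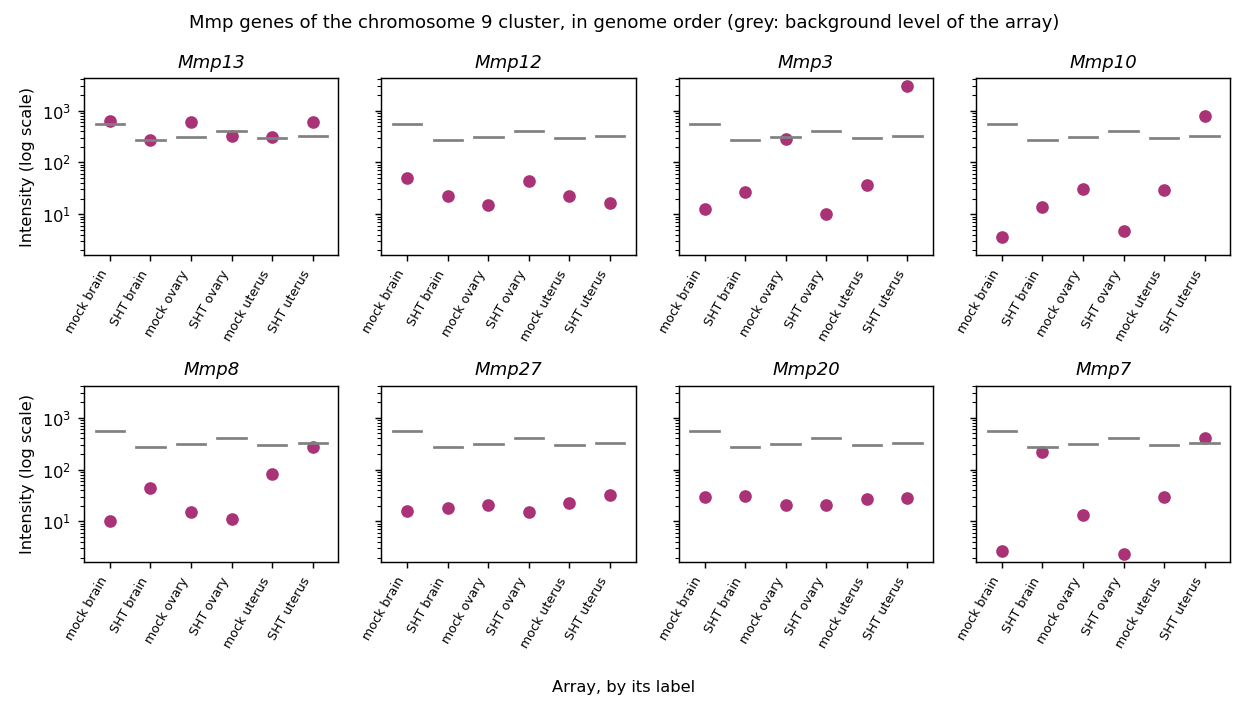
Intensity (log scale, 1 point per array) of the 8 members of the chromosome 9 cluster in genome order on the 6 arrays named by their labels, with grey bars at the background level of each array. Mmp3 and Mmp10 lie clear of the grey bar on SHT uterus only, at 2914 and 769, while Mmp12, Mmp27 and Mmp20 stay under it on every array.

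The promoters of this cluster are shown because 6 of its 8 members hold a match to both the AP-1 and the TATA letters given below. The part of these matches in the readings was not tested. RefSeq promoter windows (GRCm38.p6, 250 bases before to 50 after a start) matched 30 of the 44 members with 33 windows. Each was searched on both strands for the AP-1 letters TGANTCA, which read the same on either strand, for the TATA letters TATAAA, for the GC box letters GGGCGG and for the ETS letters AGGAAG. An AP-1 match was present in a window of 6 of the 8 cluster genes and of 0 of the 22 other members, against 7.81% of all 32851 windows. A TATA match was in 7 of the 8 and in 2 of the 22, against 13.6% of all windows. The GC box showed the opposite division, with 0 of the 8 and 18 of the 22, against 35.7% of all windows. An ETS match was in 5 of the 8 and 8 of the 22, against 35.4% of all windows. All 6 cluster genes with an AP-1 match had a TATA match in the same window, an arrangement held by 1.54% of all windows. The 100 bases just before the start follow for these 6 genes, 5′ to 3′ on the coding strand, with AP-1 and TATA matches in capitals. They lie at chr9:7272414-7272513 (Mmp13), chr9:7347274-7347373 (Mmp12), chr9:7445722-7445821 (Mmp3), chr9:7502242-7502341 (Mmp10), chr9:7628131-7628230 (Mmp20) and chr9:7691990-7692089 (Mmp7), all on the plus strand.
Mmp13: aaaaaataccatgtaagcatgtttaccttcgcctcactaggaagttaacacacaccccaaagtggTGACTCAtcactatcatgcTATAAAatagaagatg
Mmp12: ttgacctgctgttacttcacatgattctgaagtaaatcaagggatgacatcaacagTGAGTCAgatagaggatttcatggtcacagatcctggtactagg
Mmp3: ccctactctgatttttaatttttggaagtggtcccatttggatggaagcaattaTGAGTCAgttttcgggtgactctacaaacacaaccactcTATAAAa
Mmp10: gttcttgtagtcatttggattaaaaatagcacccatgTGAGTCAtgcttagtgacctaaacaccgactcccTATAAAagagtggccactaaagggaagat
Mmp20: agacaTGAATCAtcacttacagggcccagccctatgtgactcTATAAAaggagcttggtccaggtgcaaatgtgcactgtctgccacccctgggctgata
Mmp7: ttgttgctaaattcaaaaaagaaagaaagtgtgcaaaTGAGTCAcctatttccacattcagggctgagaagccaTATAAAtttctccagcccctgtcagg

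The AP-1 match began 35 bases before the start in Mmp13, 44 in Mmp12, 46 in Mmp3, 63 in Mmp10 and Mmp7, and 95 in Mmp20. Of the 6 stretches, 5 show a TATA match downstream of it, and that of Mmp12 lies outside the stretch shown. Mmp3 and Mmp10, both measured on SHT uterus only, share both matches with Mmp12 and Mmp20, which were measured on no array. A GC box match was likewise held by Adamts3, Adamts13, Adamts14, Adamts18, Mmp25 and Mmp28, which were measured on no array. Mmp11, Mmp14 and Adamts2 also held one and were measured on all 4 arrays without a neuronal profile, Mmp14 on the other arrays too. For contrast, the same stretch is given for these 3 members, with GC box matches on either strand in capitals. These lie at chr10:75932503-75932602 (Mmp11, minus strand), chr14:54431498-54431597 (Mmp14, plus strand) and chr11:50601985-50602084 (Adamts2, plus strand).
Mmp11: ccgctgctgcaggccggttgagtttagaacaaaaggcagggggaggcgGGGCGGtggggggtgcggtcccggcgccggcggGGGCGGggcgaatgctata
Mmp14: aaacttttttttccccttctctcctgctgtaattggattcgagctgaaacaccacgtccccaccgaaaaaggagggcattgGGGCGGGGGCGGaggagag
Adamts2: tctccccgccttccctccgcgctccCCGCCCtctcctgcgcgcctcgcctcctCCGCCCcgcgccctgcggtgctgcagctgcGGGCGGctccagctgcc

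Membrane-bound metalloproteinases act at the cell surface, and Mmp14 is the main activator of pro-Mmp2. Mmp14 read 785 on mock brain, 4291 on SHT brain, 9161 on mock ovary, 691 on SHT ovary, 4572 on mock uterus and 22142 on SHT uterus, above background throughout. Its lowest readings were on the 2 arrays where Mmp2 was under background, and its highest on the array where Mmp2 was highest. Mmp17, a GPI-anchored member, ran the other way, with 13409 on mock brain, 2067 on SHT brain, 2762 on mock ovary, 16042 on SHT ovary, 1353 on mock uterus and 2177 on SHT uterus. The 2 arrays rich in neuron markers were thus the 2 highest, without overlap with the other 4. Mmp15 stayed closer together, with 1791, 1463, 926, 1678, 1817 and 3792 in the order above, highest on SHT uterus. Mmp24, best known from the nervous system, read 1012 on mock brain, 1874 on SHT brain, 2705 on mock ovary, 858 on SHT ovary, 1927 on mock uterus and 2627 on SHT uterus, so its lowest readings fell on the 2 arrays with neuronal profiles. Mmp16 and Mmp25, the remaining membrane-bound members, were under background on all arrays, at 143 and 120 at the most.

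Mmp23, an enzyme first described from reproductive tissues, was under background on the same 2 arrays as Mmp2. It read 33.3 on mock brain, 1767 on SHT brain, 2807 on mock ovary, 31.2 on SHT ovary, 2852 on mock uterus and 2556 on SHT uterus. The 4 higher arrays were close to each other. Mmp19, a broadly acting basement membrane protease, read 1198, 1865, 4956, 1084, 2180 and 5501 in the order above. Its 2 highest readings fell on mock ovary and SHT uterus, the arrays rich in keratins. Mmp21 and Mmp28 were measured on no array.

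The hyalectanases are Adamts enzymes that cleave aggrecan, versican and brevican. Adamts1, which is induced in granulosa cells at ovulation, read 534 on mock brain, 2251 on SHT brain, 7747 on mock ovary, 395 on SHT ovary, 1130 on mock uterus and 7542 on SHT uterus. The 2 arrays with theca and luteal markers were therefore intermediate, and the keratin-rich arrays highest. Adamts4 ran against it, with 2047 on mock brain, 623 on SHT brain, 134 on mock ovary, 2023 on SHT ovary, 891 on mock uterus and 277 on SHT uterus. It was highest on the 2 arrays where oligodendrocyte markers (4 genes) summed to 56917 and 53712, against at most 4599 elsewhere, and under background on the keratin-rich arrays. Adamts9 read 141, 1253, 526, 122, 1377 and 1056 in the order above, with its 2 highest readings on SHT brain and mock uterus. Adamts15 read 853, 629, 1363, 760, 791 and 3865, highest on SHT uterus. Adamts8 was measured on the keratin-rich arrays alone, at 581 on mock ovary and 358 on SHT uterus, and read between 48.5 and 215 on the others. A further Adamts8 probe read 422 on mock ovary but 228 on SHT uterus, under the background level of 318 there. Adamts20 read 780 on mock brain, 232 on SHT brain, 260 on mock ovary, 728 on SHT ovary, 331 on mock uterus and 327 on SHT uterus. Its other 2 probes were dimmer, at most 214 and 60.7, and also read highest on mock brain and SHT ovary, but lay under background. Adamts5 was under background on all arrays, with a highest reading of 138 on SHT uterus.

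Among the procollagen N-proteinases, which trim the amino end of fibrillar collagens, Adamts2 was measured on 4 arrays. It read 243 on mock brain, 5738 on SHT brain, 14031 on mock ovary, 192 on SHT ovary, 7528 on mock uterus and 8140 on SHT uterus. A further Adamts2 probe read 198, 2809, 7018, 198, 3057 and 3970 in the same order and so ranked the 4 higher arrays alike. Adamts3 and Adamts14, of the same class, were under background on every array, Adamts3 at 36.2 at the most. Adamts14 came close to it on SHT uterus, at 316 against 318, and was lowest on mock brain and SHT ovary, at 71.3 and 60.1. Of the remaining Adamts genes, Adamts10, which acts on fibrillin microfibrils, was above background on all arrays and spanned 1.19 log2 units, from 916 on SHT ovary to 2088 on mock uterus. The others of its readings were 1073 on mock brain, 1375 on SHT brain, 920 on mock ovary and 1337 on SHT uterus. Adamts19 read 298, 625, 187, 304, 1419 and 256 in the order above, and was measured only on SHT brain and mock uterus, the arrays with theca, luteal and oocyte markers. Adamts7 read 33.7, 184, 197, 28.3, 364 and 667, and passed background on mock uterus and SHT uterus. Adamts6, Adamts12, Adamts13, which cleaves von Willebrand factor, Adamts16, Adamts17 and Adamts18 were measured on no array.

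The inhibitors did not move as a group. Timp1, the inducible inhibitor, read 88.0 on mock brain, 7523 on SHT brain, 5089 on mock ovary, 95.5 on SHT ovary, 14692 on mock uterus and 2702 on SHT uterus. Its highest readings were on the 2 arrays with theca and luteal markers, and SHT uterus, where Mmp2, Mmp9, Mmp11 and Mmp14 were brightest, had the lowest of the 4 readings above background. Timp3, the matrix-bound inhibitor, was far above background everywhere, with 6153 on mock brain, 6182 on SHT brain, 15115 on mock ovary, 6217 on SHT ovary, 9831 on mock uterus and 16613 on SHT uterus. The probe named Timp2 read 298, 435, 251, 264, 191 and 133 in the same order and passed background on SHT brain only. Timp4 read 413 on mock brain, 125 on SHT brain, 21.3 on mock ovary, 349 on SHT ovary, 175 on mock uterus and 29.7 on SHT uterus, all under background, and its 2 highest readings were on the arrays with neuronal profiles.

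The study's own question was which genes differ between SHT and mock in each tissue. Differences were taken as log2 intensity of the SHT array minus the mock array, relative to the median gene of the pair (a log2 difference of 0.13 in the pair labelled brain, 0.10 in ovary and 0.03 in uterus). A gene entered where its brighter array was above background, a dimmer reading under background was raised to it, which makes the fold a lower bound ("at least"), and a gene was called at 2-fold. In the pair labelled brain, 12 of the 21 members that entered were called, against 41.5% of 10303 genes. Of these 21 members 8 were higher on the SHT array, against 15.1%, and 4 were lower, against 26.4%. The members higher on SHT brain were Mmp2 (at least 17.5-fold), Timp1 (at least 12.7-fold), Adamts2 (at least 9.67-fold), Mmp11 (at least 7.00-fold), Mmp14 (4.98-fold), Adamts1 (at least 3.80-fold), Mmp23 (at least 2.98-fold) and Adamts9 (at least 2.11-fold). Those lower were Mmp17 (7.11-fold), Adamts4 (3.60-fold), Adamts20 (at least 3.11-fold) and Mmp13 (at least 2.45-fold). Fibroblast markers were also higher on SHT brain, with a sum of 67232 against 7608, and neuron markers lower, with 717 against 136839, and their part was not tested. Over all 44 members, with no filter and no reading raised to background, the median log2 difference was 0.17, against -0.25 over all genes. These medians, too, are relative to the median gene, which was taken over the genes that entered the pair.

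In the pair labelled ovary, most called members ran the other way. Of the 20 members that entered 13 were called, against 42.4% of 10421 genes. On the SHT array 10 were lower, against 19.7%, and 3 were higher, against 22.7%. The largest bounds were those of Mmp2 (at least 37.6-fold lower), Adamts2 (at least 37.2-fold), Adamts1 (at least 20.6-fold) and Timp1 (at least 13.5-fold), and Mmp14 was 14.2-fold lower. Mmp11 (at least 9.46-fold), Mmp23 (at least 7.45-fold), Mmp19 (4.89-fold), Mmp24 (3.37-fold) and Timp3 (2.60-fold) were also lower. Adamts4 was at least 6.07-fold higher, Mmp17 5.44-fold and Adamts20 at least 2.18-fold. Neuron markers summed to 4792 on the mock and 145776 on the SHT array, and fibroblast markers to 117769 and 5924, and their part was not tested. The median over all 44 members was -1.06, against 0.03 over all genes.

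In the pair labelled uterus, 13 of the 25 members that entered were called, against 20.1% of 10652 genes. On the SHT array 10 were higher, against 11.9%, and 3 were lower, against 8.12%. Mmp3 was at least 9.68-fold higher, Mmp9 7.37-fold, Adamts1 6.54-fold, Adamts15 4.79-fold and Mmp14 4.75-fold. Smaller differences in that direction were those of Mmp11 (2.57-fold), Mmp10 (at least 2.55-fold), Mmp19 (2.47-fold), Mmp2 (2.29-fold) and Mmp15 (2.04-fold). Timp1 was 5.55-fold lower, Adamts19 at least 4.55-fold and Adamts4 at least 2.86-fold. The keratin-rich SHT uterus array and the mock uterus array differed in squamous markers (228129 against 3150), in theca and luteal markers (490 against 112177), in neutrophil markers (68180 against 1741) and in macrophage markers (48763 against 8257), none of which was tested as a source. The median over all 44 members was 0.46, against -0.05 over all genes. At a 3-fold threshold 5 members, in place of 10, were higher, while the share over all genes went from 11.9% to 6.40%.

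**Figure D3:**
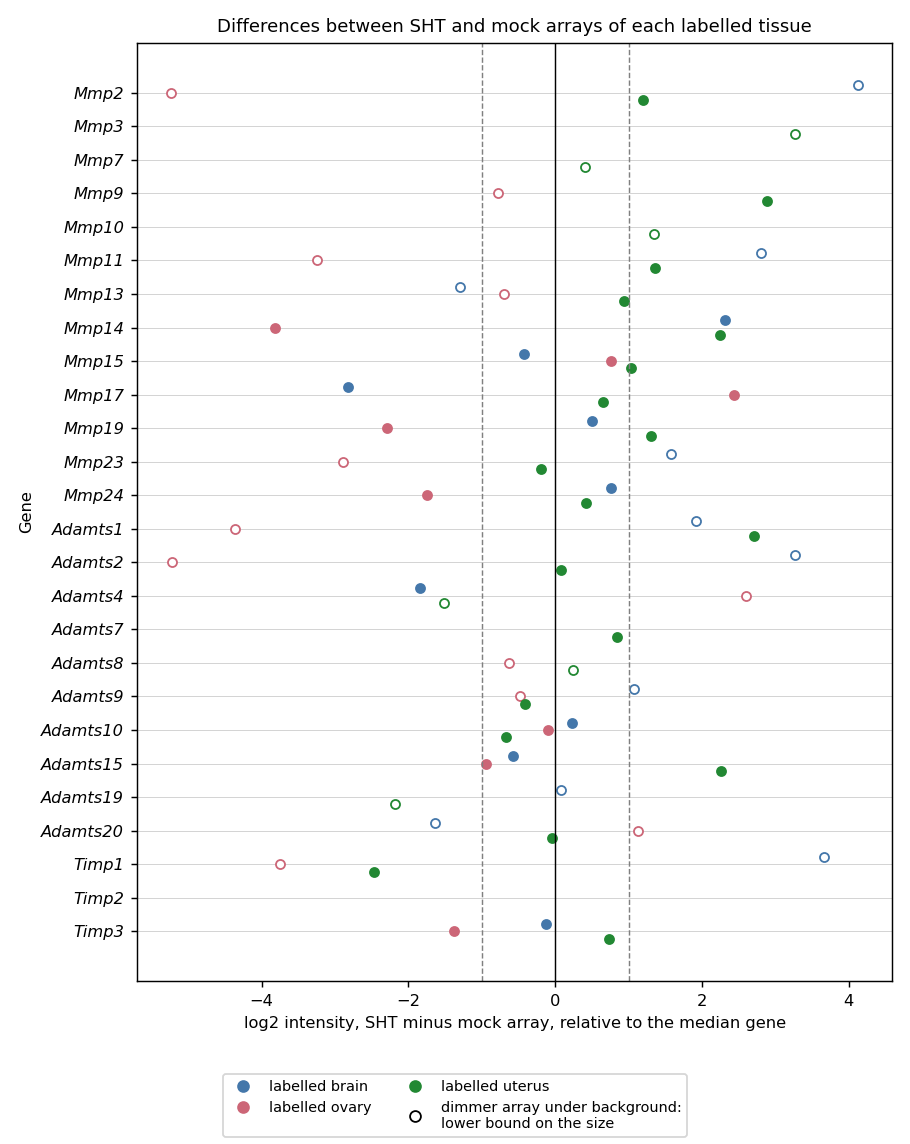
Difference in log2 intensity between the SHT and the mock array of each labelled tissue (x axis, relative to the median gene) for the members measured in that pair (y axis), with dashed lines at 2-fold and open circles where the dimmer array was under background, so that the size is a lower bound. Mmp2, Adamts2 and Timp1 lie far right for the pair labelled brain and far left for the pair labelled ovary, and Mmp17 and Adamts4 the other way.

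The average SHT effect over the 3 labelled tissues was tested for all genes with limma (labelled tissue as a block, Benjamini-Hochberg adjustment), whose error is the spread between labelled tissues. Of 10754 genes tested, 0 passed an adjusted p under 0.05 (0%), and 4 (0.0372%) had an unadjusted p under 0.05. None of the 21 members tested was among these 4. Effects of the members ran from -0.59 (SE 2.62) for Timp1 to 0.63 (SE 0.99) for Mmp9, with a median of 0.03 against 0.05 over all genes. The smallest p of a member in the limma fit was 0.342 for Mmp15 (log2 difference 0.54, SE 0.50, adjusted p = 0.999964), which was higher on 2 of 3 SHT arrays. For Mmp2 the estimate was 0.19 with an SE of 2.69, so the design could not have shown an average difference of several fold in it.

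Without choosing any pairing, all 15 pairs of arrays were set side by side over the 44 members, with folds as read and not relative to the median gene. Members 2-fold apart were counted among all 44, of which 18 were measured on no array. The all-gene shares are over genes whose brighter array was above background, so counts and shares differ in base. Mock brain and SHT ovary correlated at 0.997 across members (Pearson, log2 intensity, a description across genes that share a probe design and array), and 0 members were 2-fold apart, as were 0.110% of all genes measured in either. SHT brain and mock uterus correlated at 0.972, with 2 members 2-fold apart, Mmp11 (2.03-fold) and Adamts19 (2.27-fold), both brighter on mock uterus, against 7.06% of all genes measured in either. These 2 pairs were also the closest over all other genes, at 0.997 and 0.977. The pair that came next over all other genes, mock ovary and SHT uterus at 0.967, correlated at 0.901 across members, close to SHT brain with mock ovary (0.908) and mock ovary with mock uterus (0.901), which over all other genes stood lower, at 0.909 and 0.887. Between mock ovary and SHT uterus 10 members were 2-fold apart, all of them brighter on SHT uterus, against 15.9% of all genes measured in either. They were Mmp3 (at least 9.34-fold), Mmp11 (6.20-fold), Mmp9 (5.50-fold), Mmp15 (4.09-fold), Adamts15 (2.84-fold), Mmp2 (2.58-fold), Mmp10 (at least 2.46-fold), Mmp14 (2.42-fold), Adamts7 (at least 2.14-fold) and Adamts9 (2.01-fold). The lowest correlation across members was 0.530, between SHT ovary and SHT uterus, where all other genes correlated at 0.789. The 3 pairs with the same tissue label correlated at 0.844 (uterus), 0.717 (brain) and 0.678 (ovary) across members.

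**Figure D4:**
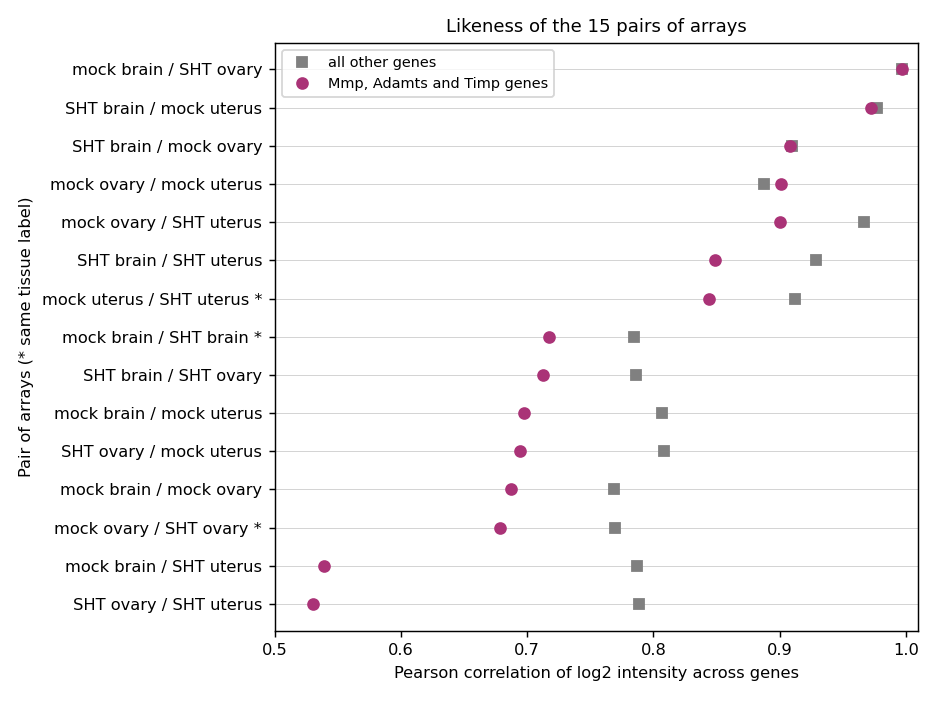
Pearson correlation of log2 intensity (x axis) for each of the 15 pairs of arrays (y axis, an asterisk marks a shared tissue label), over the 44 members (circles) and over all other genes (squares). Mock brain with SHT ovary is highest at 0.997 on both, and SHT uterus with mock brain or SHT ovary is lowest over the members, at 0.539 and 0.530, well left of the squares at 0.787 and 0.789.

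Other genes of the same system were read from fixed lists of activators and inhibitors, matrix substrates and related metalloproteinases. Of 23 activators and inhibitors on the array, 19, 18 and 17 entered the pairs labelled brain, ovary and uterus. On the SHT array 7 were higher and 3 lower in brain, against 15.1% and 26.4% of all genes. In ovary 3 were higher and 9 lower, against 22.7% and 19.7%, and in uterus 5 and 2, against 11.9% and 8.12%. Over all 23, the list median of the log2 differences was 1.16, -1.65 and 0.08 in these pairs, against -0.25, 0.03 and -0.05 over all genes. Like the medians over all members, list medians are relative to the median gene, with no reading raised to background. Thbs1, a thrombospondin that binds metalloproteinases, was at least 10.1-fold higher in the pair labelled brain and at least 18.3-fold lower in ovary. Pcolce, which enhances procollagen C-proteinase, was 14.6-fold higher and 12.6-fold lower, and Spock3, a proteoglycan of the brain, at least 12.7-fold lower and at least 9.49-fold higher. Thbs2 was at least 19.4-fold lower in the pair labelled ovary and 6.86-fold higher in uterus.

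Most matrix substrates were dimmest on mock brain and SHT ovary, while Bcan, Ncan and Reln, which encode matrix proteins of the brain, were brightest there. Of 21 on the array, 19, 19 and 17 entered the pairs labelled brain, ovary and uterus. On the SHT array 10 were higher and 4 lower in brain, against the same all-gene shares of 15.1% and 26.4%. In ovary 4 were higher and 15 lower (22.7% and 19.7%), and in uterus 7 and 0 (11.9% and 8.12%). Over all 21 the list medians were 2.29, -3.58 and 0.53. This list shares Col1a2, Col3a1, Lum and Dcn with the 6 fibroblast markers. Col1a2 was at least 5.61-fold higher, at least 51.0-fold lower and 3.61-fold higher in these pairs. Lum, a proteoglycan of collagen fibrils, was at least 19.3-fold higher, at least 47.6-fold lower and 2.79-fold higher. Fn1, encoding fibronectin, was at least 4.14-fold higher, at least 25.6-fold lower and 4.29-fold higher. The probe named Col1a1 ran against Col1a2, at least 22.8-fold lower in the pair labelled brain and at least 17.1-fold higher in ovary.

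Related metalloproteinases outside the rule numbered 26 on the array, of which 14, 14 and 18 entered the pairs labelled brain, ovary and uterus. Of these, 3 were higher and 3 lower in brain, against 15.1% and 26.4% of all genes. In ovary 2 were higher and 6 lower, against 22.7% and 19.7%, and in uterus 7 and 2, against 11.9% and 8.12%. Several of these counts lay near the share of all genes, such as 3 of 14 lower in brain and 2 of 14 higher in ovary. Over all 26 the list medians were -0.20, -0.69 and 0.57. Adam22 and Adam23, synaptic proteins without protease activity, were 22.8-fold and at least 23.3-fold lower in the pair labelled brain and 8.87-fold and at least 15.4-fold higher in ovary. Adam28 was at least 10.7-fold higher in the pair labelled uterus, and Mmel1, a membrane peptidase, at least 10.4-fold lower. In the limma fit 0 of the 17 activators and inhibitors, 0 of the 19 substrates and 0 of the 15 related metalloproteinases tested passed the adjusted threshold.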

How the data were processed

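The authors deposited linear intensity values for 26423 probes on 6 arrays of Cy5-labelled amplified RNA, per the labels' protocols. The submitters' processing notes name limma with no role. Of background correction and scaling the sources used here say nothing. Of the probes, 20377 carried 1 symbol, 0 several and 6046 none. Symbols were updated through a RefSeq table (18213 current, 2126 synonyms, 38 kept). The deposited values were converted to log2 with no scaling between arrays, after setting an array's lowest readings to the 5th percentile of those above 0. Calls used the background and 2-fold rules given with the results, with no p-value in a pair of single arrays. The average effect was fitted with limma 3.58.1 in R 4.3.3 (lmFit, eBayes with a trend, two-sided). Genes with a mean log2 intensity above the median of all probes were tested. The fit was also run on simulated data with the same change in every tissue and no array at odds with its label. That run does not cover arrays whose profiles go against their labels. The members, lists and rules were chosen with earlier results of these data known. Values are given for every member measured on at least 1 array, and for up to 4 genes per further list, those with the largest difference. Alternatives were other scalings, backgrounds, probe rules, thresholds and fits.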

Additional observations from a re-analysis of the deposited data

Results flagged for a closer look

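For 11 of the 21 members called in any pair (52.4%) the SHT array was at least 2-fold higher than the mock array in 1 labelled tissue and at least 2-fold lower in another, and the difference between tissues was not tested, since each pair is 2 arrays. Of all genes called in any pair, 3830 of 6309 (60.7%) did so. The gap between the 2 log2 differences, most of them bounds, was 9.36 for Mmp2, 8.49 for Adamts2, 7.42 for Timp1, 6.14 for Mmp14, 6.05 for Mmp11 and 4.47 for Mmp23, each higher in the pair labelled brain and lower in ovary. It was 7.07 for Adamts1 and 3.59 for Mmp19, higher in uterus and lower in ovary. For 3 members the pair labelled ovary was the higher and brain the lower, with 5.27 for Mmp17, 4.45 for Adamts4 and 2.76 for Adamts20. All 10 members called in both the brain and the ovary pair had opposite directions in them, as had 3063 of 3114 genes (98.4%). Neuron markers were far brighter on mock brain and SHT ovary than on SHT brain and mock ovary. Of the 6 markers, 4 were still above background on mock ovary and 0 on SHT brain. These 2 comparisons thus set arrays with high and low neuron markers against each other in opposite order, and the label and the tissue profile cannot be told apart.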

How the results depend on the processing

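Each pair's counts were recomputed under 7 alternatives and the limma fit under 9. Of 455 values of single members, 428 stayed called or stayed uncalled, 13 were no longer called and 14 were newly called. Of the 13, 11 fell at the 3-fold threshold, where the values themselves did not change, and 2 with each array centred on its median. Among members called in the main setting 0 turned direction. Differences under 2-fold could change sign, as that of Timp3 in the pair labelled brain did, from -0.13 to 0.28 with each array centred on its median. With readings raised only to the olfactory receptor median, more members entered, 38 in place of 21 in the pair labelled brain and 37 in place of 20 in ovary. Brain then had 13 higher (8 in the main setting, with all genes going from 15.1% to 22.6%) and 7 lower (4, all genes 26.4% to 21.5%). Ovary had 18 lower (10, all genes 19.7% to 22.5%) and 5 higher (3, all genes 22.7% to 21.5%). With a 3-fold threshold the pair labelled uterus had 5 higher (10, all genes 11.9% to 6.40%). The other counts of members stayed within 1.5 times. Over all genes, the share of calls that were higher in the pair labelled brain was 36.4% and became 54.6% with each array centred on its median, 49.5% without raising low values and 51.2% with the olfactory receptor median. The limma fit called 0 genes under every alternative, with 3 to 461 genes at an unadjusted p under 0.05, the most without the pair labelled ovary, where 4 members were among them. The fit paired the SHT and mock arrays by labelled tissue, and without that block 0 genes passed. Precision is limited by the number of arrays and, for 18 of 44 members, by signal under background. The block of the fit also follows tissue labels that markers went against on 4 arrays, so differences between tissue profiles can enter its error. The fit is therefore no clean test of SHT.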
